A study of Homo sapiens with 15 samples.

Results

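The mRNAs of the mitochondrial ribosomal proteins were followed through pellets of human cytosolic extract. Members were the protein-coding genes whose symbol is MRPL (large subunit) or MRPS (small subunit) followed by a number. Pseudogenes were left out, and a gene had to reach 10 counts in 2 or more libraries of every one of the 5 groups. All 78 such genes passed the count filter, among 16612 genes that passed it in all. The extract came from U2OS cells, an osteosarcoma line, described as wild type in the labels, while the study's methods speak of condensates of YFP-G3BP1. Reactions ran for 2 h at 37 °C with dsRNA at 250 nM, with silvestrol, which inhibits the initiation helicase eIF4A, at 2 µg/ml, with 1% PEG, which crowds macromolecules, or with no addition (mock). Each reaction was then centrifuged, and poly(A)-selected RNA of the pellet was sequenced, while the input was extract that was not pelleted. There were 3 biological replicates per group, 15 libraries in all, with 15341973 to 46939993 counted reads per library. In input, mock, dsRNA and silvestrol, replicate 1 stood apart from replicates 2 and 3, which were much alike.

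Mitochondria carry their own ribosome, which translates the few mRNAs encoded by mitochondrial DNA, all of them for subunits of the respiratory chain and the ATP synthase. Its rRNAs are made inside the organelle, whereas every mitoribosomal protein is encoded in the nucleus, translated by cytosolic ribosomes and imported. Part of these proteins descend from bacterial ribosomal proteins and part occur only in mitochondrial ribosomes. The mRNAs studied here are therefore cytosolic mRNAs from nuclear genes. They are counted separately from the transcripts of the mitochondrial genome, which these libraries also held. Of the 78 members, 30 encode large-subunit proteins with a bacterial counterpart, 21 large-subunit proteins particular to mitochondria, 16 small-subunit proteins with a bacterial counterpart and 10 small-subunit proteins particular to mitochondria. The remaining member, *MRPS36*, bears the name but its product is now known as a part of the 2-oxoglutarate dehydrogenase complex.

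The start of the coding sequence is shown for the members at both ends of the range in mock pellets, the 2 with the highest and the 2 with the lowest log2 fold change over input. The sequences are coding bases 1 to 60 of the principal mRNA in GENCODE 29 on GRCh38, read 5′ to 3′, and the capitals mark the start codon.
MRPS26: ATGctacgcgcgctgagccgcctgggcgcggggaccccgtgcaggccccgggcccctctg
MRPL53: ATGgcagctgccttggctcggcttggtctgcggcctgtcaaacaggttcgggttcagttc
MRPL17: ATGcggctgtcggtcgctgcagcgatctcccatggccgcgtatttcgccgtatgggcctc
MRPL1: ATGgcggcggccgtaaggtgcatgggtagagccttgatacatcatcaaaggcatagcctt
*MRPS26* (ENSG00000125901) lies at chr20:3045945-3048254 on the plus strand and its coding sequence has a GC content of 68.0%. *MRPL53* (ENSG00000204822) lies at chr2:74471958-74473322 on the minus strand with 62.2% GC, and *MRPL17* (ENSG00000158042) at chr11:6680782-6683401 on the minus strand with 57.2% GC. *MRPL1* (ENSG00000169288) lies at chr4:77862520-77952790 on the plus strand with 38.2% GC. The members that stood highest in mock pellets were thus more GC-rich in their coding sequence than those that stood lowest.

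Levels are counts-per-million values (CPM) after TMM normalisation over the 15 libraries, and differences are log2 fold changes with their standard error (SE) from edgeR's quasi-likelihood test on the 6 libraries of a comparison. A member was called when its p-value, adjusted by the Benjamini-Hochberg procedure over all 16612 genes, was under 0.05. Counts are relative to the other mRNAs of a library, so less of a member and more of other RNAs cannot be told apart. Of the 6 mesenchymal marker genes, all were detected in each library, with *VIM* at 976 to 2280 CPM of total counts. Of the 6 genes of other cell types, 5 stayed under 0.5 CPM and *EPCAM*, an epithelial gene, lay between 5.16 and 14.3. Comparisons over the same input libraries share them, and so do those over mock.

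In input, members ranged widely when levels were divided by exon length. The median of the 78 was 20.8 CPM per kb. *MRPL51*, a large-subunit protein particular to mitochondria, was the highest at 202 ± 25.9 CPM per kb (SD, n = 3), followed by *MRPL14* at 166 ± 17.4, *MRPL41* at 125 ± 6.90, *MRPL33* at 94.3 ± 28.5 and *MRPS34* at 86.1 ± 13.2. Neighbours in this order lay less than the sum of their SDs apart, except *MRPL14* and *MRPL41*. *MRPL42* was the lowest at 2.74 ± 0.495 CPM per kb, then *MRPL46* at 4.26 ± 0.324, *MRPL23* at 5.07 ± 1.15, *MRPL48* at 5.48 ± 0.0903 and *MRPS6* at 6.55 ± 0.518. Of these, *MRPL23* lay less than the sum of the SDs from *MRPL46* and from *MRPL48*. The annotated exons of *MRPL42* span 16393 bases, against a median of 2502 over the members, and this lowers a level per exon length. Those of *MRPL46*, *MRPL23*, *MRPL48* and *MRPS6* span 6432, 2975, 4386 and 4299 bases, whereas their principal mRNAs have 1019, 736, 1536 and 990. Their place among the lowest thus depends on dividing by exon length, and levels per mRNA length were not compared.

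Summed over the 78 members, the level fell in mock, dsRNA and silvestrol pellets and rose in PEG pellets. In CPM of total counts, without TMM, members took 5603, 4864 and 4912 in the input libraries. They took 3867, 3483 and 3211 in mock, 3614, 3238 and 3230 with dsRNA, and 3395, 3297 and 3295 with silvestrol. With PEG they took 7465, 7691 and 7599, above each input library. Every library of the other pellets lay below every input library. After TMM normalisation the sum was 5120 ± 597 CPM in input (SD, n = 3), 3300 ± 361 in mock, 3170 ± 306 with dsRNA, 3140 ± 112 with silvestrol and 9320 ± 617 with PEG. Both scales gave the same order of groups, and the means of mock, dsRNA and silvestrol differed by less than the SD of mock.

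**Figure D1:**
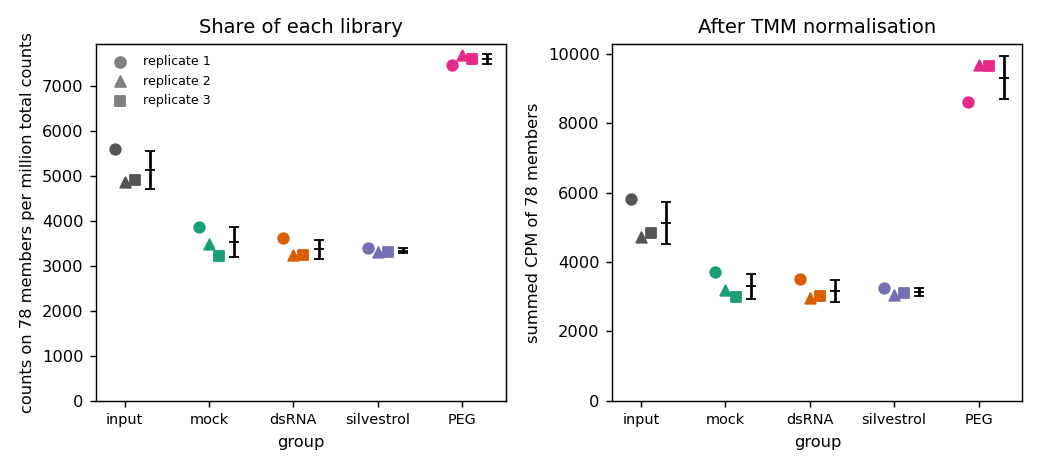
CPM of total counts on the 78 mitochondrial ribosomal protein genes (left) and their summed TMM-normalised CPM (right) in each of the 15 libraries, by group. Marker shapes give the replicate number and bars the mean ± SD (n = 3). The PEG libraries stand highest on both scales, at 7465 to 7691 on the left, and the mock, dsRNA and silvestrol libraries lowest.

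Mock pellets differed from input by the 2 h reaction without addition and by the pelleting, which cannot be told apart here. Most members were lower than in input: 56 of 78 fell, 1 rose and 21 were not called, with a median log2 fold change of -0.69. Over all genes tested, 15.8% fell and 17.6% rose, with a median of 0.00. Within same-numbered libraries, 69 members (88.5%) were lower in mock than in input in all 3 pairs, as were 39.4% of all genes. With the replicate number as a block, the fit called 68 members lower and 3 higher, where 30.1% of all genes were called lower and 32.5% higher. Without mock replicate 2 the count of members that fell was 37, beside 7.4% of all genes, and without mock replicate 3 it was 33, beside 6.12% of all genes.

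*MRPL17*, a bacterial-type protein of the large subunit, fell the most. Its level was 128, 88.5 and 92.3 CPM in input and 43.4, 34.3 and 27.3 CPM in mock. The groups did not overlap, and the log2 fold change was -1.52 (SE 0.212, adjusted p = 0.00392, edgeR). *MRPL1*, which belongs to the mobile L1 stalk near the exit site of tRNA, went from 63.8, 35.8 and 34.2 CPM to 21.7, 17.4 and 16.7 CPM. Input replicate 1 stood apart from the other input libraries here, yet all 3 lay above mock, and the log2 fold change was -1.22 (SE 0.256, adjusted p = 0.0114). It lost the call without mock replicate 2 (adjusted p = 0.0507) and without mock replicate 3 (adjusted p = 0.0539). *MRPL15* (-1.14), *MRPL22* (-1.06), a protein that lines the peptide exit tunnel, and *MRPL47* (-1.03) followed, and *MRPL22* also lost its call without mock replicate 2 (adjusted p = 0.0698) or replicate 3 (adjusted p = 0.0811). *MRPL51*, the most abundant member per exon length, went from 359, 285 and 295 CPM in input to 197, 158 and 145 CPM in mock. Its log2 fold change was -0.87 (SE 0.159, adjusted p = 0.00736). Reads of its antisense neighbour *NCAPD2*, which overlaps 31.3% of its exon bases, could not be told apart from its own, since the strand setting of the counting was not given in the sources used here.

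*MRPS26*, a small-subunit protein particular to mitochondria, was the one member that rose. It was at 54.9, 64.0 and 62.6 CPM in input and at 86.5, 87.0 and 83.2 CPM in mock. Every mock library lay above every input library, and the log2 fold change was 0.53 (SE 0.105, adjusted p = 0.00948). With an offset for GC content, which also moved the median of all genes from 0.001 to -0.045, it was at -0.04 (adjusted p = 0.847). *MRPL53* (7.54, 10.4 and 10.3 CPM in input against 11, 13.1 and 12.8 in mock) and *MRPS12*, which sits at the decoding centre (34.1, 35.5 and 38.3 against 47.0, 39.2 and 41.5), had log2 fold changes of 0.41 and 0.28. Neither was called (adjusted p = 0.0905 and 0.0985), but the replicate block called both (adjusted p = 0.00182 and 0.0138). With the GC offset *MRPS12* was at -0.126 (adjusted p = 0.530). Of the exon bases of *MRPL53*, 45.2% also belong to *CCDC142* on the same strand, so its counts are uncertain.

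By role, the 4 classes had similar medians in mock pellets. Of the bacterial-type large-subunit members 21 of 30 fell (median -0.74), and of the mitochondria-specific ones 16 of 21 (median -0.66). Of the bacterial-type small-subunit members 10 of 16 fell (median -0.56), and of the mitochondria-specific ones 8 of 10 (median -0.75). Members with particular functions were among those that fell. *MRPL58*, a peptidyl-tRNA hydrolase that rescues stalled mitoribosomes, had a log2 fold change of -0.87 and lost its call without mock replicate 3 (adjusted p = 0.0522). *MRPS30*, named for the small subunit but located in the large one, fell by 0.95 on the log2 scale, *MRPS22* by 1.00, *MRPS33* by 1.00 and *MRPS36* by 0.72. *MRPL44*, which has a ribonuclease III-like fold, was at -0.42 (adjusted p = 0.0434) and lost its call in 5 of the 6 fits that left out a library, with adjusted p from 0.0600 to 0.155 there. *MRPL41* was at -0.30 and was not called (adjusted p = 0.0809), but was called with the replicate block (adjusted p = 0.00500) and was at -1.13 with the GC offset (adjusted p = 0.0154).

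Further members chosen by role were also mostly below input. *MRPL11*, a protein of the factor-binding site, fell from 90.2, 76.9 and 76.4 CPM to 51.2, 46.4 and 43.0 CPM (-0.76), and *MRPS2*, on the small-subunit body, from 91.4, 90.5 and 90.4 CPM to 57.2, 58.1 and 55.6 CPM (-0.64). *MRPL10*, the base of the stalk, was at -0.51, *MRPL24*, near the tunnel exit, at -0.52, *MRPS18A*, which sits in the large subunit, at -0.63 and *MRPS18B* at -0.75, all called. Without mock replicate 3 each of these 4 calls was lost, with adjusted p of 0.0794, 0.0746, 0.0693 and 0.0522. *MRPL10* also lost it without input replicate 2 (0.0527 for the adjusted p) or 3 (0.0564), and *MRPL24* and *MRPS18A* without mock replicate 2 (0.0664 and 0.0673). *MRPS5* (-0.29), *MRPS7* (-0.38) and *MRPS28* (-0.28) were not called (adjusted p = 0.0954, 0.182 and 0.279), but were called with the replicate block (adjusted p = 0.00638, 0.00114 and 0.00887). *MRPS7* was at 79.6, 68.2 and 72.2 CPM in input and at 73.4, 48.4 and 42.8 CPM in mock, so that mock replicate 1 lay among the input libraries, and without that library it was at -0.65 (adjusted p = 0.0123). *MRPL4* and *MRPL34*, which followed *MRPS12* in the order of fold changes, were not called in mock, dsRNA or silvestrol pellets, and *MRPL34* was at 29.9, 34.4 and 34.3 CPM in input against 32.9, 31.9 and 30.6 CPM in mock. Exons of *MRPS18A* overlap *RSPH9* on the other strand over 47.0% of their bases, and those of *MRPS28* another gene on the same strand over 35.8%. *MRPL30* (19.5%), *MRPL33* (21.1%) and *MRPS17* (27.0%) also share exon bases with genes on their own strand, and *MRPL2*, *MRPL4*, *MRPL34*, *MRPL38*, *MRPL44*, *MRPL49*, *MRPS2*, *MRPS7*, *MRPS12* and *MRPS16* share over 10% of theirs with other genes, so that the counts of these members are uncertain.

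Next came pellets with dsRNA, which activates the antiviral kinase PKR. Over input, 58 of 78 fell, 1 rose and 19 were not called, with a median of -0.79, while 19.6% of all genes fell and 21.1% rose. *MRPL17* was at 24.4, 34.5 and 43.2 CPM, below each input library, with a log2 fold change of -1.55 (SE 0.233, adjusted p = 0.00298). *MRPL1* (-1.40), *MRPL15* (-1.24), *MRPL47* (-1.17) and *MRPS10* (-1.12) followed, and *MRPL51* was at -0.87. *MRPS26* was again the one member that rose, at 115, 83.7 and 90.6 CPM and a log2 fold change of 0.71 (SE 0.150, adjusted p = 0.00779), and with the GC offset it was at 0.08 (adjusted p = 0.734). The classes had medians of -0.86 (bacterial-type, large), -0.69 (mitochondria-specific, large), -0.77 (bacterial-type, small) and -0.81 (mitochondria-specific, small).

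With silvestrol, 63 of 78 members fell against input, 1 rose and 14 were not called, with a median of -0.79, while 18.1% of all genes fell and 19.4% rose. *MRPL17* was at 44.7, 23.8 and 36.7 CPM, with a log2 fold change of -1.52 (SE 0.246, adjusted p = 0.00375). *MRPL1* (-1.42), *MRPL22* (-1.22), *MRPS33* (-1.16) and *MRPL47* (-1.15) followed, and *MRPL51* was at -0.997. *MRPS26* rose here too, at 87.5, 84.8 and 82.7 CPM and a log2 fold change of 0.52 (SE 0.110, adjusted p = 0.00880), and with the GC offset it was at -0.10 (adjusted p = 0.543). The class medians were -0.82, -0.70, -0.68 and -0.81, in the same order as above.

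**Figure D2:**
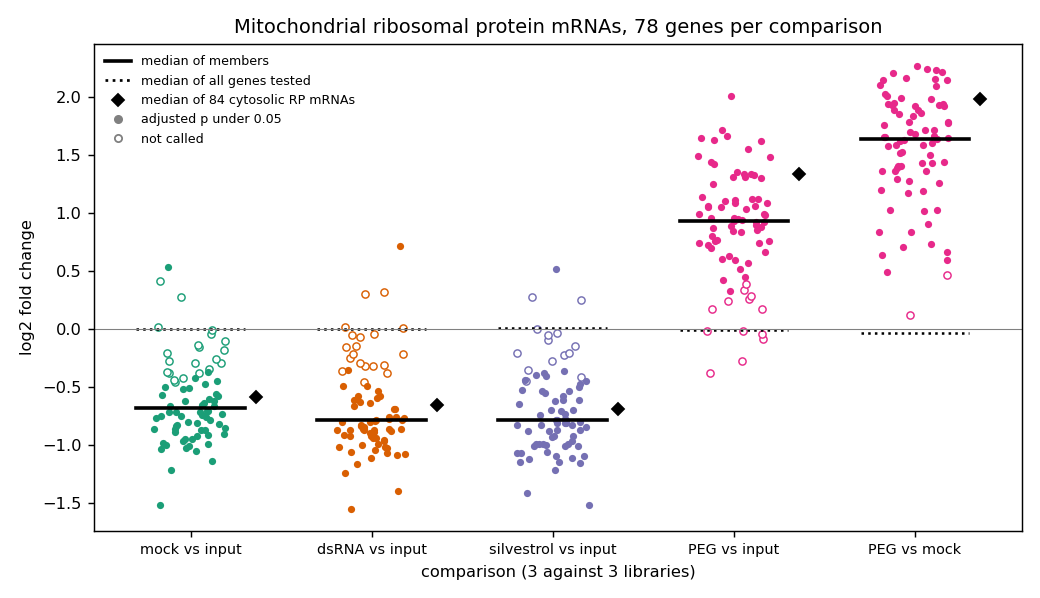
Log2 fold change of each of the 78 members (points, 3 against 3 libraries, edgeR) in 5 comparisons. Filled points had an adjusted p under 0.05, solid lines are the members' medians, dotted lines the medians of all 16612 genes and diamonds the medians of 84 cytosolic ribosomal protein (RP) mRNAs. Members lie mostly below 0 in mock, dsRNA and silvestrol pellets and mostly above 0 with PEG, where their median is 0.93 over input and 1.65 over mock.

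Set against mock, no member was called with dsRNA or silvestrol in edgeR's test of the 6 libraries. For dsRNA against mock, 0 of 78 were called in either direction, as for 0% of all genes. The members' median was -0.05, 5 members had an unadjusted p under 0.05, and DESeq2 called 0. In same-numbered libraries 29 members (37.2%) were lower with dsRNA than in mock in all 3 pairs, against 16.9% of all genes. Another 5 (6.41%) were higher in all 3 pairs, against 17.9% of all genes. The log2 fold change of dsRNA over mock followed GC content, with Spearman's rho of 0.498 among members and 0.368 over all genes. The part of GC content in the counts of pairs was not tested. For silvestrol against mock, 0 of 78 were called, again beside 0% of all genes, with a median of -0.08, 0 members at an unadjusted p under 0.05 and 0 called by DESeq2. The members' log2 fold changes spanned -0.22 to 0.11 there. For dsRNA against silvestrol, 0 of 78 were called, beside 0% of all genes, with a median of 0.03. There 2 members had an unadjusted p under 0.05 and 1 was called by DESeq2. The shares of all genes at an unadjusted p under 0.05, or called by DESeq2, are not given for these comparisons. The counts of members at those cuts are therefore not read as a difference.

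The replicate block called 6 members lower with dsRNA than in mock, while it called 2.65% of all genes lower. For replicates 2 and 3 the pairing behind the block rests mainly on the labels. *MRPL3*, which reaches towards the peptidyl transferase centre of the large subunit, had the largest difference. It was at 72.1, 56.5 and 56.5 CPM with dsRNA, at 107, 89.5 and 83.2 CPM in mock and at 98.7, 88.9 and 86.2 CPM with silvestrol. Each dsRNA library lay below every mock and silvestrol library. The log2 fold change over mock was -0.60 (SE 0.142, adjusted p = 0.813), and the replicate block gave an adjusted p of 3.199e-09. Against silvestrol it was -0.56 (SE 0.117, adjusted p = 0.702), with an adjusted p of 1.285e-08 with the block and 0.0198 in DESeq2. Over input, *MRPL3* fell with dsRNA (-0.97, adjusted p = 0.00608), whereas in mock (-0.38, adjusted p = 0.151) and with silvestrol (-0.41, adjusted p = 0.0912) it was not called, though the replicate block called both (adjusted p = 0.00115 and 0.00877).

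The other 5 members called lower with the block were *MRPS16*, *MRPS17*, *MRPL45*, *MRPL30* and *MRPL44*, the first and second of which were named after their values were seen. *MRPS16* was at 117, 97.0 and 98.6 CPM with dsRNA against 149, 132 and 118 CPM in mock, so the groups did not overlap. Its mean log2 ratio over the 3 pairs was -0.35 ± 0.09 (SD, n = 3), with an adjusted p of 0.000167 with the block. *MRPL45*, which ties the mitoribosome to the inner membrane, was at 19.2, 21.0 and 20.7 CPM against 27.1, 24.4 and 23.6 CPM, a mean log2 ratio of -0.30 ± 0.17. *MRPL30*, at 24.3, 26.3 and 26.1 against 30.8, 30.5 and 32.3 CPM, had a mean of -0.29 ± 0.07. *MRPS17* and *MRPL44* had means of -0.33 ± 0.12 and -0.28 ± 0.08. With the GC offset added to the block, *MRPL44* lost this call. For dsRNA against silvestrol the block called 2 members lower, *MRPL3* and *MRPS16* (adjusted p = 0.00167), while it called 2.49% of all genes lower. For silvestrol against mock it called 0 members.

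**Figure D3:**
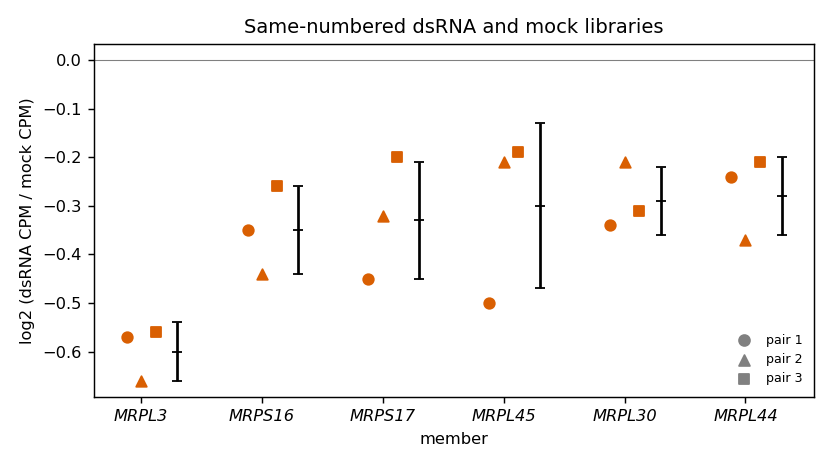
Log2 ratio of dsRNA over mock CPM in the 3 pairs of same-numbered libraries for the 6 members called lower with the replicate block. Marker shapes give the pair and bars the mean ± SD (n = 3). All 18 ratios are below 0, and those of *MRPL3* are the lowest, at -0.57, -0.66 and -0.56. The members were picked by the block fit on these same pairs, so the ratios are no separate support for their fall.

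PEG pellets held more of nearly all members than input. Of the 78, 65 rose, 0 fell and 13 were not called, with a median of 0.93 on the log2 scale, a fold change of 1.90. Over all genes 25.5% rose and 25.9% fell, with a median of -0.01. None of the members below input had an unadjusted p under 0.05 in edgeR, and DESeq2 called 0 lower. Members stood 0.94 above all genes, a gap that a change of scaling could hardly alter, since it moves all genes nearly alike. When only library size was used for scaling, the median of all genes was -0.35 and that of members 0.59. That scaling gave 54 members higher and 4 lower (*MRPS10*, *MRPL42*, *MRPS27* and *MRPL30*), where 14.1% of all genes were called higher and 41.5% lower. Of all genes called, 25.3% were higher with it, against 49.5% with TMM and 77.4% with the GC offset. The GC offset held the overall level of each library beside the TMM factors, so it shifted all genes. In same-numbered libraries 67 members (85.9%) were above input in all 3 pairs, as were 35.1% of all genes.

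*MRPL23*, a protein at the exit of the peptide tunnel, rose the most. It was at 11.3, 17.8 and 16.2 CPM in input and at 52.8, 66.7 and 57.6 CPM with PEG, a log2 fold change of 2.01 (SE 0.174, adjusted p = 0.000234). Its level in the other pellets, 14.7, 14.3 and 14 CPM in mock for example, lay within the range of input. *MRPL12*, the stalk protein that recruits translation factors, was at 29.8, 31.1 and 32.9 CPM in input and 84.7, 108 and 106 CPM with PEG, a log2 fold change of 1.72 (SE 0.130, adjusted p = 0.000217). The exons of *MRPL12* overlap another annotated gene on the same strand over 68.2% of their bases, and reads of the pair could not be told apart. *MRPL41* (1.67), *MRPS26* (1.65), *MRPL55* (1.63) and *MRPS12* (1.63) rose next. *MRPL51* went to 560, 607 and 648 CPM, a log2 fold change of 0.99 (SE 0.149, adjusted p = 0.000964). *MRPS36*, at 52.0, 65.3 and 61.8 CPM with PEG against 22.1, 22.7 and 23.3 in input, rose by 1.44.

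A few members did not rise over input. *MRPS10* was at 90.5, 58.2 and 54.7 CPM in input and at 51.2, 49.3 and 51.7 CPM with PEG, so all PEG libraries lay below input, with a log2 fold change of -0.38 (SE 0.205, adjusted p = 0.151). It was at -0.71 with library size only (adjusted p = 0.00873), at -0.45 with no filter on low counts (adjusted p = 0.0175) and at 0.23 with the GC offset (adjusted p = 0.357). *MRPL42* was at -0.28 (adjusted p = 0.246), *MRPL38* at -0.09 (adjusted p = 0.688) and *MRPS27*, a protein with pentatricopeptide repeats, at -0.05 (adjusted p = 0.744). With the GC offset *MRPL42* was at 0.47 and *MRPS27* at 0.44, the latter called (adjusted p = 0.0251). The offset also shifted the library levels, so these values and that of *MRPS10* do not show GC content alone. *MRPL17* had one PEG library apart, at 57.6 CPM beside 150 and 158 CPM, and a log2 fold change of 0.29 (adjusted p = 0.501) that was 0.59 without PEG replicate 1 (adjusted p = 0.0300). *MRPL1* rose by 0.87 (adjusted p = 0.0197) but lost its call in 4 of the 6 fits that left out a library, with adjusted p from 0.0516 to 0.0778, and with library size only (adjusted p = 0.0596).

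The classes moved together with PEG as well. Of the bacterial-type large-subunit members 24 of 30 rose (median 0.92) and of the mitochondria-specific ones 17 of 21 (median 0.92). In the small subunit 15 of 16 bacterial-type members rose (median 0.96) and 8 of 10 mitochondria-specific ones (median 0.78). Among members chosen by role, *MRPS28* rose by 1.55, *MRPL24* by 1.14, *MRPS5* by 1.09, *MRPS18A* by 0.96, *MRPS7* by 0.92, *MRPL11* by 0.84, *MRPS18B* by 0.80 and *MRPS2* by 0.66 on the log2 scale. *MRPL10*, at 105, 123 and 127 CPM in input and 129, 134 and 124 CPM with PEG, was not called (0.17, adjusted p = 0.240) and was at -0.18 with library size only.

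**Figure D4:**
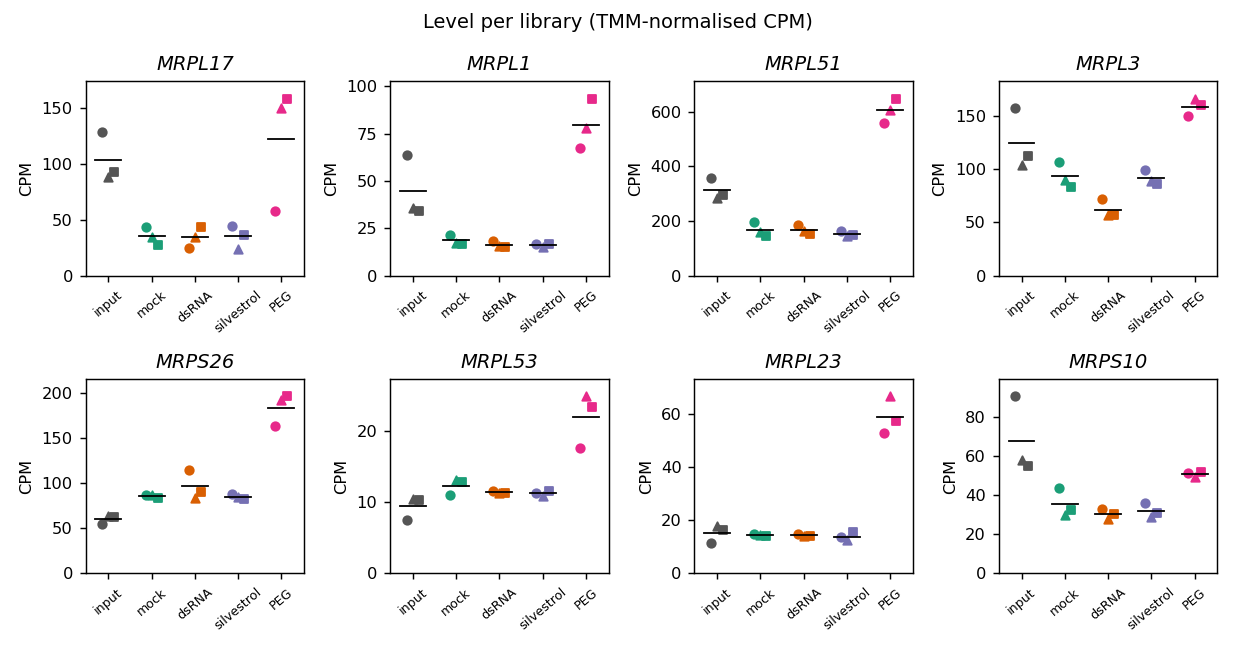
TMM-normalised CPM of 8 members in each of the 15 libraries, on linear axes from 0. Marker shapes give the replicate number (circle 1, triangle 2, square 3) and lines the group mean (n = 3). *MRPL17*, *MRPL1* and *MRPL51* are lower in mock, dsRNA and silvestrol pellets than in input, *MRPL3* is lowest with dsRNA, *MRPS26* and *MRPL53* are not lowered, *MRPL23* is raised with PEG alone, and *MRPS10* is not raised with PEG.

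Compared directly with mock pellets, PEG pellets held more of 76 of the 78 members, with a median of 1.65, a fold change of 3.13. Over all genes 31.3% were higher and 32.2% lower with PEG than in mock. All 78 members had a positive log2 fold change, and 0 were called lower by edgeR or DESeq2, with 0 negative at an unadjusted p under 0.05. *MRPS18C*, a bacterial-type small-subunit protein, was at 26.1, 22 and 20.6 CPM in mock and at 99.1, 111 and 106 CPM with PEG. The libraries did not overlap, and the log2 fold change of 2.27 (SE 0.137, adjusted p = 5.704e-06) was the largest among members. Of its exon bases, 40.2% overlap *ABRAXAS1* on the other strand. *MRPL22* (2.24), *MRPL2* (2.23), *MRPS36* (2.22) and *MRPL54* (2.21) were next, and *MRPL1* (2.17), *MRPL51* (1.93) and *MRPL17* (1.87) were also far above mock. *MRPS26*, which had risen in mock, was at 1.17.

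*MRPL38* and *MRPL49* were the members not called in this comparison. *MRPL38* was at 30.7, 29 and 23.8 CPM in mock and at 32.1, 26.7 and 27.5 CPM with PEG, overlapping. Its log2 fold change was 0.12 (SE 0.145, adjusted p = 0.497, edgeR). With library size only it was -0.34 (adjusted p = 0.0713), and with the GC offset, which also shifted the library levels, 0.64 (adjusted p = 0.00452). *MRPL49* was at 102, 65.2 and 60.1 CPM in mock and at 107, 93.4 and 100 CPM with PEG. The first mock library stood apart, and the log2 fold change of 0.47 (adjusted p = 0.0632) was called with the block (adjusted p = 0.00889), in DESeq2 (adjusted p = 0.0356) and at 0.77 without mock replicate 1 (adjusted p = 0.000101). *MRPS27* (0.49, adjusted p = 0.00364), *MRPS10* (0.60, adjusted p = 0.00882) and *MRPL42* (0.64, adjusted p = 0.00482) had the smallest rises next to these, and with library size only they were at 0.02, 0.14 and 0.17 and were not called.

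The 78 mRNAs were shorter than most. The principal mRNA had a median length of 1458 bases against 3212 over 13468 genes with one, and the coding sequence 588 against 1416 bases. Their median GC content, 49.2%, was close to the 49.6% of all genes. Among the members, the log2 fold change followed GC content in mock, dsRNA and silvestrol pellets, with Spearman's rho of 0.57, 0.63 and 0.58 over 78 genes, against 0.41, 0.45 and 0.44 over all genes. In PEG pellets over input, rho with GC content was 0.34 and rho with mRNA length -0.51, against 0.30 and -0.62 over all genes. In mock pellets rho with mRNA length was -0.06 among members, whereas it was 0.28 over all genes. These are correlations across genes of the same libraries, which are not independent replicates.

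Split by GC content into 3 sets of 26 genes, the GC-poor members (35.0 to 44.6%) had a median of -0.85 in mock pellets and 23 fell. The middle set (44.8 to 53.4%) had a median of -0.69 and 22 fell. The GC-rich set (53.7 to 71.9%) had a median of -0.36, and 11 fell and 1 rose. The shares of all genes in these GC ranges are not given, so the counts per set cannot be set against them. With silvestrol the medians were -0.96, -0.76 and -0.45, and with dsRNA -0.91, -0.79 and -0.34. With PEG over input they were 0.91, 0.78 and 1.20, so there the GC-rich set stood highest but the order was not the same. With the GC offset 57 members fell in mock, 62 with dsRNA and 64 with silvestrol, and 0 rose in any of these, while 14.8%, 17.3% and 16.5% of all genes fell. With PEG over input 72 rose with the GC offset, and so did 37.9% of all genes. The offset also shifted the library levels, so these counts do not show GC content alone.

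**Figure D5:**
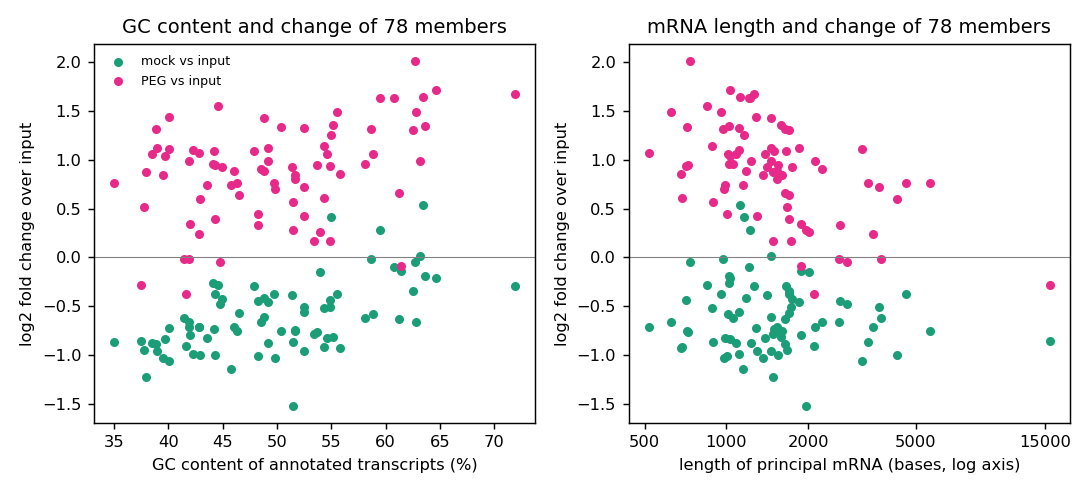
Log2 fold change over input of the 78 members in mock (green) and PEG (magenta) pellets against the GC content of their annotated transcripts (left) and the length of the principal mRNA on a log axis (right). In mock pellets values rise with GC content (rho 0.57) and show little relation to length (rho -0.06), and in PEG pellets they fall with length (rho -0.51).

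Other nuclear genes of mitochondrial translation gave a more mixed picture. Of the 5 mitoribosomal proteins that do not carry an MRPL or MRPS symbol, *DAP3*, a GTP-binding protein of the small subunit, was called lower in mock, dsRNA and silvestrol pellets (-0.31, -0.47 and -0.35, adjusted p = 0.0436, 0.00985 and 0.0335). In mock pellets its call was lost in 5 of the 6 fits that left out a library, in dsRNA pellets in 1 and in silvestrol pellets in 4. *PTCD3*, *CHCHD1*, *AURKAIP1* and *GADD45GIP1* were not called in these pellets. With PEG over input *CHCHD1* (1.75), *GADD45GIP1* (1.57), *AURKAIP1* (1.33) and *DAP3* (0.86) rose, and *PTCD3* was at 0.25 (adjusted p = 0.241), which became 0.47 without input replicate 1 (adjusted p = 0.00215).

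A list of 59 further genes held 25 mitoribosome assembly factors, 14 translation factors and 20 tRNA synthetases and related enzymes of mitochondria. Together with the 5 proteins above, 11 of 64 fell and 9 rose in mock (median -0.23), 21 fell and 8 rose with dsRNA (median -0.28), 17 fell and 10 rose with silvestrol (median -0.24), and 5 fell and 32 rose with PEG over input (median 0.39). In mock these were 17.2% and 14.1% of the list, near the 15.8% and 17.6% of all genes. With dsRNA 32.8% fell and with silvestrol 26.6%, and with PEG over input 50% rose. In mock *MTIF3*, the initiation factor, had the lowest value (-0.97, adjusted p = 0.00456), then *SLIRP*, which binds mitochondrial mRNAs (-0.69, adjusted p = 0.0572), and the release factor *MTRF1L* (-0.67, adjusted p = 0.0277). *MRM1* (0.91), a methyltransferase of mitochondrial rRNA, *AARS2* (0.89), the alanyl-tRNA synthetase, and *MTG2* (0.88), a GTPase of large-subunit assembly, rose the most there. *MRM1* lost its call in 4 of the 6 fits that left out a library (adjusted p = 0.0579 to 0.0985), and *MTRF1L* without mock replicate 2 or 3 (adjusted p = 0.0994 and 0.0967). *MTIF3* was at -0.93 with dsRNA and -1.02 with silvestrol, *MTG2* at 0.98 and 0.92, and *AARS2* at 0.95 and 0.98, all called. With the GC offset *AARS2* was not called in these 3 pellets (adjusted p = 0.0724, 0.0618 and 0.0808), nor *MRM1* in mock (adjusted p = 0.452) or *MTG2* with silvestrol (adjusted p = 0.0574). With PEG over input, *TSFM*, an elongation factor, rose (1.48), while *GATC* (-0.62), *MTRF1L* (-0.61) and *VARS2* (-0.47) fell, calls that *GATC* (adjusted p = 0.283), *MTRF1L* (0.01, adjusted p = 0.952) and *VARS2* (adjusted p = 0.0768) did not keep with the GC offset. *VARS2* also lost it without input replicate 3 (adjusted p = 0.0525) or PEG replicate 3 (adjusted p = 0.0504). The GC offset also shifted the library levels here, so the lost calls do not show GC content alone. With PEG over mock, *SLIRP* (2.07), *GADD45GIP1* (2.06) and *CHCHD1* (2.04) were the highest, and *AARS2* (-1.26), *VARS2* (-1.12) and *MARS2* (-0.80) the lowest.

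The mRNAs of 84 cytosolic ribosomal proteins moved in the same direction as the members. Their medians were -0.59 in mock, -0.66 with dsRNA and -0.69 with silvestrol, where 58, 66 and 56 of them fell. With PEG their medians were 1.34 over input and 1.99 over mock, where 82 and 83 rose. The 13 mRNAs of the mitochondrial genome had medians of 1.45, 1.66 and 1.61 in mock, dsRNA and silvestrol pellets, where 11 rose in each. With PEG over input their median was 1.03, and over mock it was -0.32. Of the 2 nuclear RNAs examined, *MALAT1* was at 220, 215 and 218 CPM of total counts in input, at 237, 340 and 324 in mock and at 667, 327 and 412 with PEG. *NEAT1* was at 517, 830 and 860 in input, at 750, 1410 and 1100 in mock and at 411, 208 and 264 with PEG. Neither was called in mock, and with PEG over input *MALAT1* was called higher and *NEAT1* lower. The mitochondrial mRNAs thus stood above input also in the pellets in which the members stood below it, and their part in the members' values was not tested.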

How the data were processed

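Poly(A)-selected RNA of 15 libraries was analysed. The authors deposited raw counts of reads per gene for each library, without normalisation, for 57500 genes. The submitters' processing notes name Trimmomatic 0.36, STAR 2.5.2b, featureCounts of Subread 1.5.2 and GRCh38. The strand setting is not given in the sources used here. Total counts had a median of 35584710, and PEG replicate 1 had the lowest, 15341973.

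The count filter kept genes that reached 10 counts in 2 or more libraries of every group. Each comparison was fitted on its 6 libraries with edgeR 4.0.16 (TMM, quasi-likelihood F test, R 4.3.3) and adjusted over all 16612 genes at 0.05. Log2 fold changes used a prior count of 2, and the SE was the unshrunk coefficient over the root of F. The paper's methods name DESeq2, and DESeq2 1.42.0 was an alternative, beside other scalings and filters, the replicate block and leaving out each library. Another was an offset for each library's loess trend on GC (span 0.3). That trend was fitted to levels scaled by library size only, and the TMM factors were applied as well. The offset therefore also shifted the overall level of each library, and its fits do not show GC content alone. The fit was tested on simulated data that had less variation between replicates than the fits without the block gave, and no replicate effect. That test therefore does not speak for the calls in these libraries. Figures were drawn with matplotlib 3.10.9.

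Symbols were found for 16456 kept genes and GC content, over all transcripts of GENCODE 29, for 16529. Principal mRNAs came from the same release. Of the members, 77 had the same start and end there, 40 shared exon bases with another gene, 25 of them over 10%, and 36 had named pseudogenes, 79 loci in all.

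Libraries were paired by the replicate numbers of the labels. Deviations from group means correlated at 0.131 to 0.861 in all 30 same-numbered pairs and at -0.746 to 0.583 in the 60 others, overlapping ranges. Pairs of replicate 1 with another number were all negative. Input replicate 2 correlated at 0.583 with mock replicate 2 and with mock replicate 3. Mock replicate 2 correlated at 0.649 with dsRNA replicate 2 and at 0.539 with dsRNA replicate 3. For replicates 2 and 3 the pairing thus rests mainly on the labels. In input, mock, dsRNA and silvestrol, counts of replicates 2 and 3 differed by a chi-square per degree of freedom of 4.97 to 9.68. Between replicate 1 and either of them it was 67.9 to 99.8. With PEG the 3 values were 23.4 to 45.6. The libraries of a group were therefore not evenly spread. The biological coefficient of variation of mock against input was 0.189, and 0.0817 with the block. With 3 libraries per group an exact permutation test cannot give a p under 0.1.

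The members, gene lists and tests were chosen with earlier results of these data known. Named members were the 5 highest and 5 lowest log2 fold changes over input in each pellet and over mock for PEG, the 5 highest and lowest levels per kb in input, and a set chosen by role. For other genes of mitochondrial translation, the 3 highest and 3 lowest values and 5 mitoribosomal proteins were named. Markers of the cell type, nuclear RNAs and mitochondrial mRNAs were checked as lists.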

Additional observations from a re-analysis of the deposited data

How the results depend on the processing

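Counts of called members kept within 1.5 times of the reported value in 234 of 256 alternatives. Many of the reported counts were 0, as for dsRNA or silvestrol against mock, so this total says little about the counts above 0. With the replicate block, 3 members were higher in mock than in input, 6 were lower with dsRNA than in mock and 2 lower with dsRNA than with silvestrol. With the replicate block and the GC offset, 0 rose over input with dsRNA or silvestrol. In that fit 4791 of all 16612 genes rose over input with dsRNA. The same setting called 5 members lower with dsRNA than in mock and 2 lower than with silvestrol. With the GC offset alone, 0 rose in mock, dsRNA or silvestrol pellets, where 1594, 2175 and 1821 of all 16612 genes rose. DESeq2 called 1 lower with dsRNA than with silvestrol. For PEG over input, library size only called 4 lower and no filter on low counts called 1 lower. With a log2 fold change over 1 also required, 8 fell and 0 rose in mock, and 14 fell and 0 rose with dsRNA. With silvestrol 17 fell and 0 rose, and 31 rose with PEG over input. The share of all genes under this added requirement is not given here, so these counts cannot be set against it. Leaving out a library gave 33 to 61 falls in mock against input. The block changed no other call of a count by over 1.5 times.

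Of the log2 fold changes of single genes, 19 of 1785 alternatives reversed the sign. With the GC offset, and then with the block and the offset, *MRPS26* was at -0.037 and -0.039 in mock and at -0.103 and -0.102 with silvestrol, *MRPS12* at -0.126 and -0.135 in mock, and with PEG over input *MRPS10* at 0.229 and 0.270, *MRPL42* at 0.468 and 0.449, *MRPS27* at 0.436 and 0.433 and *MTRF1L* at 0.014 and 0.033. With library size only, *MRPL17* was at -0.067, *PTCD3* at -0.077 and *MRPL10* at -0.182 with PEG over input, and *MRPL38* at -0.341 over mock. Leaving out a library gave *MRPL38* -0.234 to 0.068 with PEG over input, the highest without input replicate 1. The GC offset also shifted the overall level of each library, and the parts of GC content and of that shift were not tested. The causes of the other reversals were not tested either. Among the other alternatives 64 lost and 61 gained a call.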
